A study of Homo sapiens with 8 samples.

Results

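A set of 8 genes of the germline and of meiosis was followed through a series of 4 breast epithelial cell lines: PRSS21, SYCP2, SYCP3, STAG3, REC8, SMC1B, HORMAD1 and MEIOB. They were 8 of 56632 genes in the table of counts and were chosen by name, PRSS21 because of its large difference between M4 and M1 in these same libraries. That difference is therefore a description here. The other members were also chosen with earlier results of these data known. For PRSS21 no p or call is given in a comparison that uses M4 or in M3 against M1. The RNA-seq data held 2 biological replicates of each of 4 lines (8 libraries of poly A+ RNA). M1 is MCF10A, a spontaneously immortalized, non-tumorigenic mammary epithelial line grown with 10 ng/ml EGF, a growth factor of epithelial cells. M2, the line MCF10AT1k.cl2, descends from MCF10A cells that were given the active T24 form of HRAS and then passed through a xenograft, and was also grown with 10 ng/ml EGF. M3 (MCF10Ca1h) and M4 (MCF10CA1a.cl1) were each derived from a carcinoma that arose in xenografts of M2, carry the same HRAS history, and were grown without EGF. All lines were kept for 8 days as acini in Matrigel with 2% horse serum. Each line is 1 derived line, so a difference between lines is a difference between 4 cell lines and not between classes of tumor. EGF and the step to carcinoma cannot be told apart where M3 or M4 is set against M1 or M2, whereas M2 against M1 and M4 against M3 share their medium.

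In meiosis, homologous chromosomes pair and recombine while being held in the synaptonemal complex, a ladder-like protein structure. SYCP2 and SYCP3 form its lateral elements along the chromosome axes. STAG3, REC8 and SMC1B are subunits of meiotic cohesin, the ring complex that holds sister chromatids together, and they stand in for STAG1 or STAG2, for RAD21 and for SMC1A of the mitotic ring, while SMC3 is shared. HORMAD1 marks chromosome axes that have not yet synapsed, and MEIOB binds single-stranded DNA during recombination. PRSS21, also called testisin, is a serine protease held at the cell surface by a lipid anchor and is known from male germ cells. In most somatic tissues such genes are kept silent by DNA methylation and by repressor complexes, and genes of the germline that are transcribed in tumors are called cancer-testis genes.

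The DNA just before the annotated starts of PRSS21, SYCP2 and SMC1B is shown because these 3 genes were the ones called higher in M3. The stretches were read from GRCh37, the build of the files, 5′ to 3′ on the strand of the gene, and end at the first annotated base, so they hold no transcribed sequence. Capitals mark CG dinucleotides, the sites of DNA methylation, and methylation itself was not measured. The PRSS21 stretch is chr16:2866931-2867180 (plus strand), the SYCP2 stretch is chr20:58508711-58508818 (minus strand) and the SMC1B stretch is chr22:45809501-45809573 (minus strand).
PRSS21: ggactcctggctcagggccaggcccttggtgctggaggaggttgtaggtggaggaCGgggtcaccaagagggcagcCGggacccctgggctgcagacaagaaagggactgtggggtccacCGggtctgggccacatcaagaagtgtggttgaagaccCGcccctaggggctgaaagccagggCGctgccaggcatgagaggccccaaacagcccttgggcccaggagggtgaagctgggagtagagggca
SYCP2: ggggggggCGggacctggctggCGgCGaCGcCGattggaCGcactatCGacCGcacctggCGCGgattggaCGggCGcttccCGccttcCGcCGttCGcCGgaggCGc
SMC1B: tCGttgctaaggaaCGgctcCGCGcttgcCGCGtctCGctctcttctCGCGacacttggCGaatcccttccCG

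The 3 stretches differed in their density of CG. PRSS21 held 5 CG in 250 bases (65.6% G and C), SYCP2 held 18 in 108 bases (75.9%) and SMC1B held 11 in 73 bases (63.0%). The SYCP2 and SMC1B stretches were short because another gene starts at their far end on the opposite strand: FAM217B starts 109 bases from SYCP2 and RIBC2 starts 74 bases from SMC1B. PRSS21 had no such partner. Windows of 300 bases around RefSeq gene starts (GRCh38.p14, 250 bases before the start and 50 after) were at hand for 6 of the 8 genes, and STAG3 had a pair of them, which makes 7 windows. In these windows CG numbered 19 for PRSS21, 41 for SYCP2, 34 for SMC1B, 24 for SYCP3, 26 for REC8, and 20 and 30 for STAG3, against a median of 14 over 35116 windows of all genes. The letters TCCCGC, the core of a motif bound by E2F-family factors including the repressor E2F6, were found on either strand in 7 of the 7 windows and in 26.9% of all windows. Of the printed stretches, the one of SYCP2 holds these letters and those of PRSS21 and SMC1B do not. The windows describe partly different DNA: the SYCP2 and SMC1B stretches lie wholly inside theirs, whereas the PRSS21 window shares the last 193 bases of its stretch and runs on past the annotated start used here. The letters CACGTG, the E-box bound by MAX with partners such as MGA, were in 2 of the 7 windows, both of STAG3, and in 7.26% of all. A CG lies inside each of these letter strings, so their presence is not separate from the CG count, and a match is not a binding site.

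Library totals ran from 69669945 to 107350288 expected counts, the per-gene read estimates of RSEM, so that 1 count was close to 0.01 CPM (counts scaled with TMM factors to a common library size). A gene was called when its Benjamini-Hochberg adjusted p in the quasi-likelihood test of edgeR was under 0.05 and its absolute log2 fold change was above 1. Of the 8 genes, 6 passed the filter on low counts. HORMAD1 and MEIOB did not and have no test. The 2 M2 replicates were much closer to each other than those of M1, M3 or M4. Leaving out either M2 library removed nearly all calls of the whole table in M2 against M1. It also removed most of those in M3 and M4 against M2, so a call lost in such a fit is not particular to its gene. A supplementary table of the study places M1 replicate 2 and M2 replicate 1 in the other line, and the labels were followed here. With these 2 libraries exchanged, no gene of the whole table was called in M2 against M1, where 622 were called under the labels. The lines expressed epithelial markers, with all 6 of a list (KRT5, KRT14, KRT17, TP63, CDH1, EPCAM) at 10 counts or more in every library. Their levels differed between lines. In M4 against M1, KRT5, KRT14 and TP63 were called lower (log2 fold changes -1.26, -2.37 and -1.38) and EPCAM higher (1.57). KRT17 and CDH1 were not called in that pair, where 9.48% of all tested genes were called higher and 11.2% lower. Among 5 fibroblast genes, whose summed level was 60.1 and 8.60 CPM in the M1 replicates, 74.4 and 72.4 in those of M2, 10.0 and 15.7 in those of M3 and 7.59 and 6.43 in those of M4, COL1A2 was at 0 throughout and DCN, which encodes a matrix proteoglycan, had counts of 2820 and 133 (M1), 6130 and 4125 (M2), 80 and 184 (M3) and 19 and 1 (M4). DCN was called lower in M4 against M2 (log2 fold change -9.19, SE 1.67, adjusted p = 0.0097, edgeR) and against M1. The other fibroblast genes did not share this: COL1A1, with 474 to 2113 counts in a library, and PDGFRB were called in no pair. COL3A1 had at most 8 counts. Of the leukocyte genes described here, PTPRC had at most 3 counts in a library, CD3E was at 0 throughout, and CD14, called lower in M3 and M4 against M1 (log2 fold changes -2.28 and -3.65), had counts of 2037 and 1169 (M1), 462 and 320 (M2), 445 and 209 (M3) and 230 and 83 (M4). The part of these markers in the results was not tested. Of 9 markers of testicular germ cells, DAZL, PRM1, PRM2, TNP1, TNP2 and PGK2 were at 0 counts in all 8 libraries, and the highest of the others was ACRV1 with 26 counts in M4 replicate 1. The summed level of the list lay between 0.0512 and 0.273 CPM in every library.

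PRSS21 (ENSG00000007038, chr16:2867181-2876305, plus strand) had 0 counts in all 4 libraries of M1 and M2. It had 4467 and 3659 counts in the M3 replicates and 3195 and 1962 in the M4 replicates. Every library of the 2 lines derived from carcinomas thus held at least 1962 counts, and no library of the other 2 lines held any. Mean levels were 49.2 ± 10.2 CPM in M3 and 26.6 ± 2.13 CPM in M4 (SD, n = 2). As a count of 0 allows up to 3 counts in a library, PRSS21 was at least 1365-fold higher in M3 than in M2 (adjusted p = 0.000437, edgeR). It was at least 1351-fold higher in M3 than in M1, and M4 stood at least 739-fold above M2 and at least 731-fold above M1. The values of M4 and M1 chose the gene, so the differences that use either line are given without a test. Per kilobase of exon the PRSS21 level was 25.0 CPM in M3, above 93.8% of the genes with a count, and 13.5 CPM in M4, above 89.2%. M4 was 1.85-fold lower than M3 (log2 fold change -0.89), a difference given without a test because the M4 values chose the gene. In bulk RNA, more cells with PRSS21 transcripts cannot be told apart from more transcripts per cell. No other gene among the 11842 with at least 100 counts in each M3 and M4 library was at 0 in all libraries of M1 and M2, a count that was made after the values of PRSS21 were known and that depends on the minimum of 100. With a minimum of 20 counts, 5 genes were at 0 in those libraries: PRSS21, LAMP3, HS3ST2, LINC02261 and ISL2, a homeobox gene with at least 43 counts in each M3 and M4 library.

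**Figure D1:**
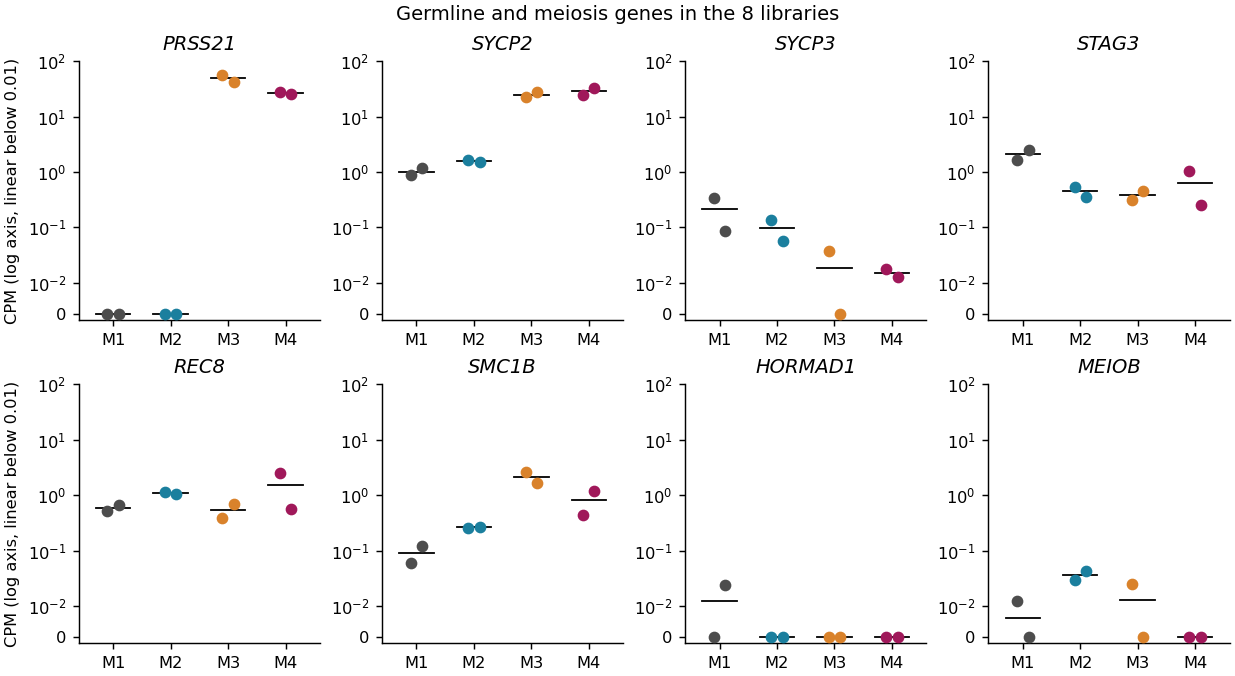
Levels of the 8 genes in CPM (log axis, linear below 0.01 CPM) in each library of M1, M2, M3 and M4, where points are the 2 replicates and the bar is their mean. PRSS21 and SYCP2 rise to between 22.2 and 56.4 CPM in M3 and M4, SMC1B to between 0.432 and 2.58 CPM, and SYCP3, HORMAD1 and MEIOB stay below 0.5 CPM in every library.

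Of the lateral element genes, SYCP2 was transcribed in every line and rose steeply in M3 and M4, while SYCP3, its partner in the lateral element, stayed near the limit of detection. SYCP2 (ENSG00000196074, chr20:58438619-58508710, minus strand) had counts of 72 and 96 (M1), 166 and 106 (M2), 1755 and 2392 (M3) and 2770 and 2589 (M4). The libraries of M3 and M4 lay far above those of M1 and M2 without overlap. The mean level was 1.02 ± 0.213 CPM for M1, 1.57 ± 0.0872 for M2, 24.8 ± 3.74 for M3 and 28.8 ± 6.19 for M4 (SD, n = 2). SYCP2 rose 15.8-fold in M3 against M2 (log2 fold change 3.98, SE 0.26, adjusted p = 0.000779, edgeR) and 18.3-fold in M4 against M2 (log2 fold change 4.20, SE 0.26, adjusted p = 0.000264, edgeR). Against M1 it rose 24.3-fold in M3 (log2 fold change 4.60, SE 0.27, adjusted p = 0.000255, edgeR), and in M4 it stood 28.2-fold higher, given without a test. The steps within each medium did not pass: M2 against M1 had a log2 fold change of 0.62 (SE 0.25, adjusted p = 0.187, edgeR) and M4 against M3 one of 0.21 (SE 0.23, adjusted p = 0.548, edgeR). In the order M1, M2, M3, M4 of mean levels, then, M2 and M3 were the neighbours whose difference passed the test. FAM217B, which starts on the other side of the printed SYCP2 stretch and was singled out for that position after its values were seen, had counts of 837 and 723 (M1), 1111 and 794 (M2), 1168 and 2168 (M3) and 1437 and 1295 (M4). FAM217B was called higher in M3 against M1 (log2 fold change 1.07, SE 0.27, adjusted p = 0.0295, edgeR) and in no other pair, with a log2 fold change of 0.84 in M3 against M2 (SE 0.27, adjusted p = 0.118, edgeR) where that of SYCP2 was 3.98. The 89 other tested genes within 5 Mb of SYCP2 on chromosome 20 had a median log2 fold change of 0.04 in M3 against M2 and 0.04 in M4 against M2.

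SYCP3 (ENSG00000139351, chr12:102122426-102133250, minus strand) had 28 and 7 counts in the M1 replicates, 14 and 4 in those of M2, 3 and 0 in those of M3, and 2 and 1 in those of M4. The higher counts were thus in M1 and M2, opposite to SYCP2, but its replicates differed widely, as 28 from 7 counts in M1, and no pair passed the test. Its log2 fold change in M3 against M1 was -3.43 (SE 1.30, adjusted p = 0.0978, edgeR). At 3 counts or fewer in each M3 and M4 library, a further fall could not have been detected at this depth.

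The cohesin subunits did not move as a group. SMC1B (ENSG00000077935, chr22:45739944-45809500, minus strand) had counts of 5 and 10 (M1), 26 and 19 (M2), 204 and 143 (M3) and 49 and 93 (M4). All 4 libraries of M3 and M4 were above those of M1 and M2, with M3 the highest. SMC1B rose 22.8-fold in M3 against M1 (log2 fold change 4.51, SE 0.68, adjusted p = 0.00455, edgeR) and 8.00-fold in M3 against M2 (log2 fold change 3.00, SE 0.62, adjusted p = 0.0347, edgeR). The call against M2 was lost when any 1 of the 4 M2 or M3 libraries was left out (adjusted p between 0.0662 and 0.274, edgeR), and that against M1 was kept (adjusted p between 0.0134 and 0.0249, edgeR). Both were lost when M1 replicate 2 and M2 replicate 1 were exchanged (adjusted p = 0.0946 against M1 and 0.118 against M2, edgeR). The call of PRSS21 in M3 against M2 and those of SYCP2 in M3 were kept in every alternative fit run. M4 was 8.73-fold above M1, given without a test, and its log2 fold change against M2 was 1.62 (SE 0.60, adjusted p = 0.0914, edgeR). M4 against M3 had a log2 fold change of -1.38 (SE 0.58, adjusted p = 0.135, edgeR) and M2 against M1 one of 1.51 (SE 0.66, adjusted p = 0.22, edgeR). No step between lines next to each other in level passed the test and kept its call without each library. RIBC2, which shares the SMC1B start region and was singled out for that after its values were seen, had counts of 40 and 102 (M1), 273 and 196 (M2), 137 and 192 (M3) and 196 and 249 (M4). RIBC2 was called in no pair, and its log2 fold change in M3 against M2 was -0.47 (SE 0.50) where that of SMC1B was 3.00. The 109 other tested genes within 5 Mb of SMC1B had a median log2 fold change of -0.12 in M3 against M2.

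STAG3 (ENSG00000066923, chr7:99775186-99812010, plus strand) had its highest counts in M1, 139 and 204, then 55 and 25 (M2), 25 and 40 (M3) and 117 and 20 (M4). The M1 libraries lay above all others, and the 2 M4 replicates were far apart. STAG3 was called lower in M3 against M1 (log2 fold change -2.42, SE 0.67, adjusted p = 0.0396, edgeR), a call that was lost when any 1 of the 4 libraries was left out (adjusted p between 0.0648 and 0.156, edgeR) or the 2 libraries were exchanged (adjusted p = 0.496, edgeR). M2 against M1 had a log2 fold change of -2.21 (SE 0.67, adjusted p = 0.103, edgeR). STAG3 has near-identical transcribed pseudogenes, and 4 of them (STAG3L1, STAG3L3, STAG3L4 and STAG3L5P) held 492 to 6599 counts over the 8 libraries, against 625 for STAG3. None of its 8 deposited values was a whole number, as happens when reads are divided between similar genes, so its values are uncertain. REC8 (ENSG00000100918, chr14:24641062-24649463, plus strand) had 43 and 54 counts in the M1 replicates, 116 and 73 in those of M2, 30 and 59 in those of M3, and 288 and 44 in those of M4. It was called in no pair, and its M4 mean rested on replicate 1. IRF9, an interferon-response factor whose gene starts 10619 bases before REC8, was named after its values were seen. It split the M4 replicates the same way, with 4076 counts in replicate 1 and 412 in replicate 2, and its part in the REC8 values was not tested.

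**Figure D2:**
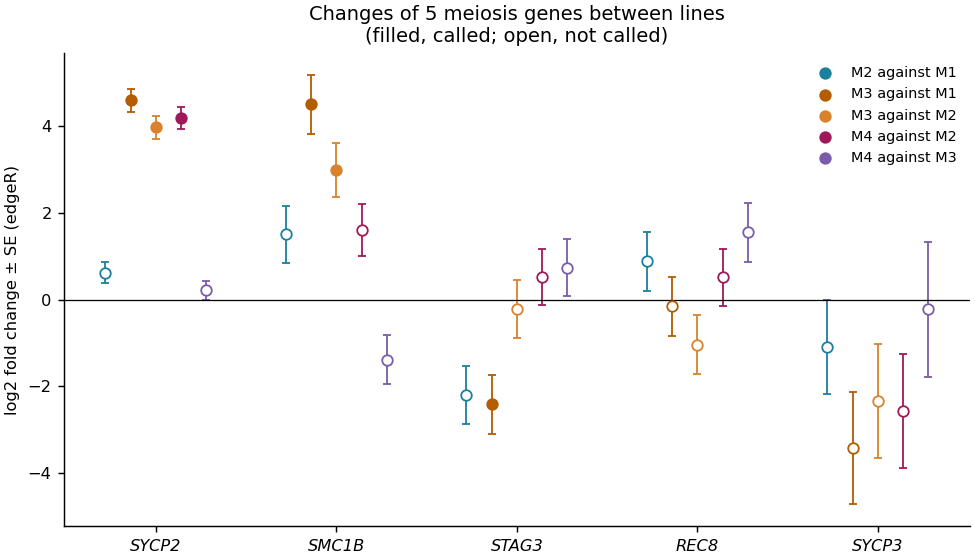
Log2 fold changes with their SE from edgeR for SYCP2, SMC1B, STAG3, REC8 and SYCP3 in 5 pairs of lines, with called values filled and others open. SYCP2 stands between 3.98 and 4.60 in the 3 comparisons of M3 or M4 with M1 or M2 that are drawn (M4 against M1 is left out). In the pairs drawn, SMC1B is filled in M3 against M1 and M3 against M2 only. The intervals of REC8 and SYCP3 are wide.

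The meiotic subunits were compared with their mitotic counterparts per kilobase of exon. SMC1B stood at 0.106% and 0.248% of the SMC1A level in the M1 libraries, at 0.292% and 0.314% in M2, at 4.76% and 1.90% in M3, and at 0.626% and 1.33% in M4. SMC1B thus remained a small fraction of SMC1A in every library, M3 included. REC8 lay between 0.628% and 5.98% of RAD21, the highest value being that of M4 replicate 1. STAG3 lay at 4.57% and 8.56% of STAG2 in M1 and between 0.783% and 4.38% in the other lines. All 13 listed genes of the mitotic ring and its loading, release and acetylation factors were tested. SMC1A, SMC3, RAD21, STAG1 and STAG2 were called in none of the 6 pairs of lines, although STAG1 came close to the fold minimum in M4 against M1 (log2 fold change 0.99, SE 0.14, adjusted p = 0.00216, edgeR). The 2 listed genes called in any pair were higher in M2, M3 and M4 against M1, and are named because they were called: ESCO2, which acetylates SMC3 in S phase (log2 fold changes 1.85, 2.02 and 2.16), and CDCA5, which encodes the cohesin protector sororin (1.41, 1.69 and 1.98). Over all tested genes, 2.26%, 8.02% and 9.48% were called higher in these pairs.

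**Figure D3:**
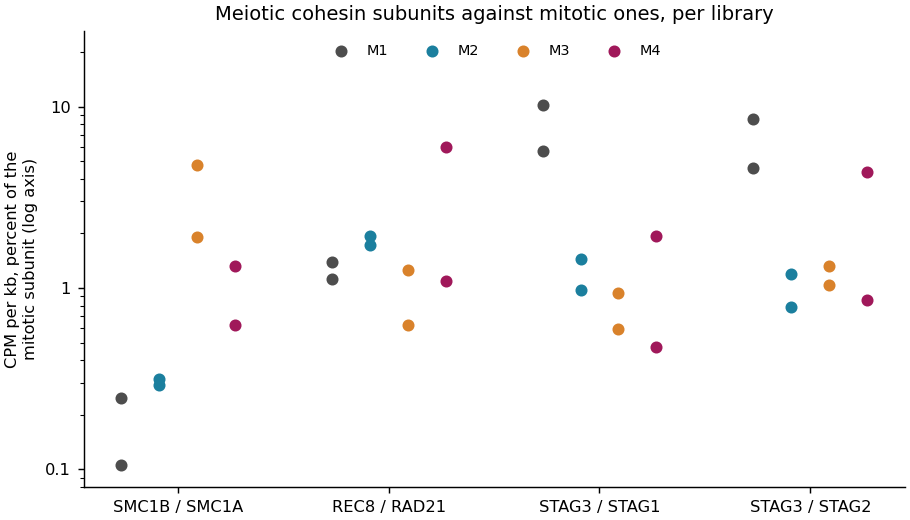
Level of each meiotic cohesin subunit as a percent of its mitotic counterpart (CPM per kilobase, log axis) in each of the 8 libraries. SMC1B rises from between 0.106% and 0.314% of SMC1A in M1 and M2 to between 0.626% and 4.76% in M3 and M4; STAG3 against STAG1 or STAG2 is highest in M1.

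HORMAD1 (ENSG00000143452, chr1:150670536-150693371, minus strand) had 2 counts in M1 replicate 2 and 0 in the other 7 libraries. MEIOB (ENSG00000162039, chr16:1883987-1922179, minus strand) had counts of 1 and 0 (M1), 3 and 3 (M2), 2 and 0 (M3) and 0 and 0 (M4). Both sat at or below the 3 counts that a reading of 0 allows, so no difference between lines was detectable. MEIOB lies on the same arm of chromosome 16 as PRSS21 and did not share its counts in M3 and M4.

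Counted over the 5 members tested without PRSS21, SYCP2 and SMC1B were called higher and 0 lower in M3 against M2. Over all 18431 tested genes, 2.95% were called higher and 1.2% lower in that pair. Of the 5 tested without PRSS21, SYCP2 and SMC1B were called higher and STAG3 lower in M3 against M1, beside 8.02% and 5.51% of all genes. In M4 against M2, where 6.98% of all genes were called higher and 6.94% lower, SYCP2 was the 1 member called of the 5 tested without PRSS21. In M4 against M1, the comparison that chose PRSS21, 9.48% of all genes were called higher and 11.2% lower, and the members are described by their values above and not by a count of calls. No member was called in either direction in M2 against M1 (2.26% of all genes higher and 1.11% lower), and 2 had an unadjusted p under 0.05 by edgeR, SYCP2 and STAG3, while DESeq2 called 1, STAG3. Leaving out PRSS21, no member was called in M4 against M3 (3.99% of all genes higher and 6.3% lower), where 1 member had an unadjusted p under 0.05 by edgeR, SMC1B, and DESeq2 called 0. The filter on low counts keeps a gene that is high in 1 line, so the 6 tested genes are not a neutral sample of the 8. The members were also chosen with earlier results of these data known, so their counts of calls are a description.

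A wider list of 42 meiosis genes, written from general knowledge, gave a different picture from PRSS21 and SYCP2. Of the 41 matched to the table, 11 were at 0 in every library, 22 reached 10 counts in a library and 18 were tested. In M2 against M1, 4 were called higher (TRIP13, MND1, PSMC3IP and SGO2) and 0 lower, beside 2.26% and 1.11% of all tested genes. In M3 against M1, 4 were called higher (TRIP13, MND1, SGO2 and MSH5) and 0 lower, beside 8.02% and 5.51%. In M4 against M1, 4 were higher (TRIP13, MND1, PSMC3IP and SGO2) and 2 lower (DMC1 and MCMDC2), beside 9.48% and 11.2%. The median log2 fold change of the 18 tested genes was 0.06 in M2 against M1, 0.53 in M3 against M1 and -0.35 in M4 against M1, where the medians over all tested genes were -0.04, -0.02 and -0.02. TRIP13, an ATPase that removes HORMA-domain proteins and also acts in the spindle checkpoint of dividing cells, had counts of 1582 and 1462 (M1), 5039 and 3470 (M2), 4675 and 4627 (M3) and 7940 and 5306 (M4). SGO2, which protects centromeric cohesin, had 498 and 285 counts in the M1 replicates, 2303 and 1633 in those of M2, 1914 and 2488 in those of M3, and 1857 and 1783 in those of M4. These 2 genes, also used in mitosis, had thus reached their higher level in M2, where PRSS21 was at 0. MND1 and PSMC3IP, which form a heterodimer that assists strand exchange, rose in M2 against M1 with log2 fold changes of 1.89 (SE 0.33, adjusted p = 0.0213, edgeR) and 1.24 (SE 0.21, adjusted p = 0.0185, edgeR). All 4 calls in M2 against M1 were lost when either M2 library was left out, as were nearly all calls of the whole table in that pair. The log2 fold changes of these 4 genes stayed between 1.15 and 2.72 without any 1 library. The 4 calls were also lost when the 2 libraries that the study's table assigns to the other line were exchanged, as were all calls of the whole table in that pair. All calls of listed meiosis genes in M3 and M4 against M1 were lost too. Over the whole table the exchange left 219 calls in place of 2494 in M3 against M1, and 1559 in place of 3821 in M4 against M1. Such a loss is therefore not particular to these genes. The call of MSH5, a MutS homolog of crossover formation, in M3 against M1 was lost without any 1 of the 4 libraries (adjusted p between 0.0604 and 0.136, edgeR).

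RNF212, a SUMO ligase-like factor that stabilizes crossover sites, was the listed gene with counts closest to the pattern of PRSS21. It had counts of 103 and 0 (M1), 0 and 0 (M2), 1131 and 1015 (M3) and 561 and 629 (M4). The M1 replicates disagreed, and M2 was at 0. RNF212 was at least 360-fold higher in M3 than in M2 (adjusted p = 0.0453, edgeR) and at least 180-fold higher in M4 than in M2 (adjusted p = 0.0241, edgeR), and it was called in neither line against M1. Both calls were lost when any 1 library of the 2 lines was left out (adjusted p between 0.104 and 0.306 for M3 and between 0.067 and 0.152 for M4, edgeR). Of the 18 tested listed genes, RNF212 was the 1 called higher in M3 against M2 and 0 were lower, beside 2.95% and 1.2% of all tested genes. In M4 against M2, 1 was higher (RNF212) and 2 lower (DMC1 and MCMDC2), beside 6.98% and 6.94%. In M4 against M3, 0 were higher and 2 lower (DMC1 and MCMDC2), beside 3.99% and 6.3%. DMC1, the meiosis-specific recombinase, had counts of 7 and 6 (M1), 5 and 9 (M2), 29 and 44 (M3) and 1 and 0 (M4). It was called lower in M4 against M3 (log2 fold change -6.07, SE 1.06, adjusted p = 0.0109, edgeR) on no more than 44 counts. MCMDC2, an MCM-like protein of meiotic recombination, had 47 and 67 counts in the M1 replicates, 26 and 23 in those of M2, 26 and 36 in those of M3, and 9 and 6 in those of M4. Both were called lower in M4 against each of the other 3 lines, and of the 6 calls only that of MCMDC2 against M1 was kept without each library.

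**Figure D4:**
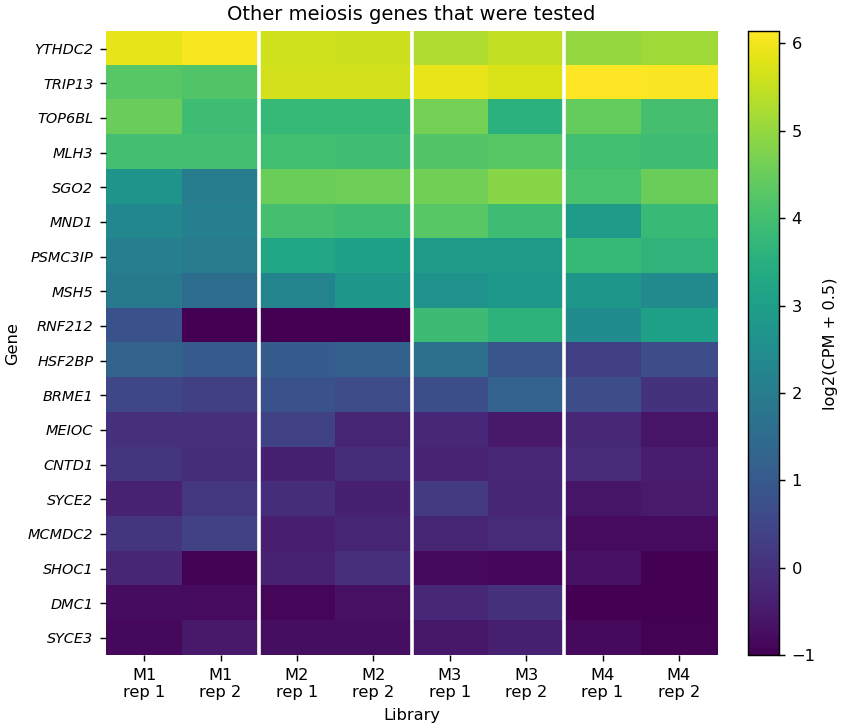
Levels of the 18 tested genes of the wider meiosis list as log2(CPM + 0.5), genes in rows and the 8 libraries in columns, ordered by mean level. TRIP13, SGO2, MND1 and PSMC3IP are lower in the 2 M1 libraries than in M2, and RNF212 is bright in M3 and M4, with M1 replicate 1 above replicate 2.

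A list of 38 other germline and cancer-testis genes was mostly silent in the 4 lines. Of 37 matched genes, 18 were at 0 in every library, 8 reached 10 counts and 5 were tested. PBK, a mitotic kinase also known from testis, was called higher in M2, M3 and M4 against M1 with log2 fold changes of 1.94 (SE 0.22), 2.01 (SE 0.22) and 1.42 (SE 0.21), the call in M2 being lost without either M2 library. ACTL8, an actin-like protein of the testis, had counts of 420 and 378 (M1), 720 and 505 (M2), 483 and 1036 (M3) and 19 and 80 (M4). It fell in M4 against M3 (log2 fold change -3.94, SE 0.76, adjusted p = 0.015, edgeR), M2 and M1, the call against M2 being lost without either M2 library. Under the exchange of M1 replicate 2 and M2 replicate 1, the PBK calls in M2, M3 and M4 were lost (adjusted p = 1.0, 0.662 and 0.949, edgeR). No gene of this list was called higher in M3 against M2 or in M4 against M2 by edgeR, where 2.95% and 6.98% of all tested genes were.

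PRSS21 belongs to the membrane-anchored serine proteases, and 26 genes of that group, with inhibitors and a receptor, were counted beside it. Of these, 18 were tested. In M3 against M2, 1 was called higher (SERPINA5) and 2 lower (TMPRSS4 and TMPRSS13), beside 2.95% and 1.2% of all tested genes. In M4 against M2, 2 were higher (PRSS8 and PRSS22) and 1 lower (TMPRSS3), beside 6.98% and 6.94%. PRSS8, the epithelial protease prostasin, had counts of 3370 and 5528 (M1), 2237 and 1546 (M2), 2450 and 1097 (M3) and 11646 and 5745 (M4). PRSS22 had 173 and 369 counts in the M1 replicates, 82 and 61 in those of M2, 147 and 205 in those of M3, and 2826 and 818 in those of M4. PRSS8 and PRSS22 thus had their highest mean level in M4, whereas that of PRSS21 was in M3. In M4 against M3 the log2 fold change was 2.02 for PRSS8 (SE 0.43, adjusted p = 0.021, edgeR) and 3.07 for PRSS22 (SE 0.51, adjusted p = 0.00953, edgeR), and each call was lost without M4 replicate 1, that of PRSS8 also without M4 replicate 2 and that of PRSS22 also without M3 replicate 1. In M4 against M2 the call of PRSS22 was kept without each library and that of PRSS8 was lost without either M2 library or M4 replicate 1. The protease matriptase (ST14), its inhibitors SPINT1 and SPINT2 and the protease-activated receptor F2RL1, which trypsin-like enzymes cleave, were called in no pair. Their lowest count in any library was 2468, so all 4 were well measured.

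Around PRSS21, 33 annotated genes lay within 200 kb and 22 were tested. The nearest was EIF1P4, a processed pseudogene on the other strand whose span overlaps that of PRSS21, with no count in the M1 or M2 libraries, 1 and 7 in M3, and 1 and 3 in M4, too few to test. PRSS41, which starts 18710 bases before PRSS21, was at 0 in all libraries. ZG16B, which starts 13073 bases after it, had counts of 481 and 1150 (M1), 634 and 392 (M2), 624 and 445 (M3) and 308 and 176 (M4). PRSS33, which starts 29232 bases before PRSS21, had counts of 3 and 26 (M1), 3 and 0 (M2), 33 and 41 (M3) and 0 and 0 (M4), and was not called in M3 against M2. In M3 against M2, 2 of the 22 tested neighbours were called higher, GREP1 and TNFRSF12A, and 0 lower, beside 2.95% and 1.2% of all tested genes. In M4 against M2, 5 were higher (PRSS22, GREP1, CLDN9, CLDN6 and TNFRSF12A) and 1 lower (KREMEN2), beside 6.98% and 6.94%. In M4 against M1, 5 were higher (PRSS22, PKMYT1, GREP1, CLDN9 and TNFRSF12A) and 4 lower (PRSS27, PRSS33, ZG16B and FLYWCH2), beside 9.48% and 11.2%. TNFRSF12A, a receptor of the TNF family, was well measured, with counts of 5157 and 8435 (M1), 9833 and 6607 (M2), 20196 and 23298 (M3) and 32451 and 22042 (M4). Its log2 fold change was 1.46 (SE 0.22, adjusted p = 0.0122, edgeR) in M3 against M2 and 1.58 (SE 0.22, adjusted p = 0.00338, edgeR) in M4 against M2. The TNFRSF12A call in M3 was lost without either M2 library (adjusted p up to 0.14, edgeR), and that in M4 was kept. GREP1 had 60 and 57 counts in the M1 replicates, 53 and 14 in those of M2, 217 and 233 in those of M3, and 607 and 303 in those of M4. CLDN9 and CLDN6, claudins of tight junctions, reached at most 39 and 15 counts. The calls of CLDN9, CLDN6 and KREMEN2 in M4 against M2 were lost without any 1 of the 4 libraries, and that of GREP1 was kept. The GREP1 call in M3 against M2 was lost without M2 replicate 1, M2 replicate 2 or M3 replicate 2 (adjusted p up to 0.128, edgeR) and under the exchange of the 2 libraries. The 188 other tested genes within 5 Mb of PRSS21 had a median log2 fold change of -0.14 in M3 against M2 and 0.19 in M4 against M2.

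**Figure D5:**
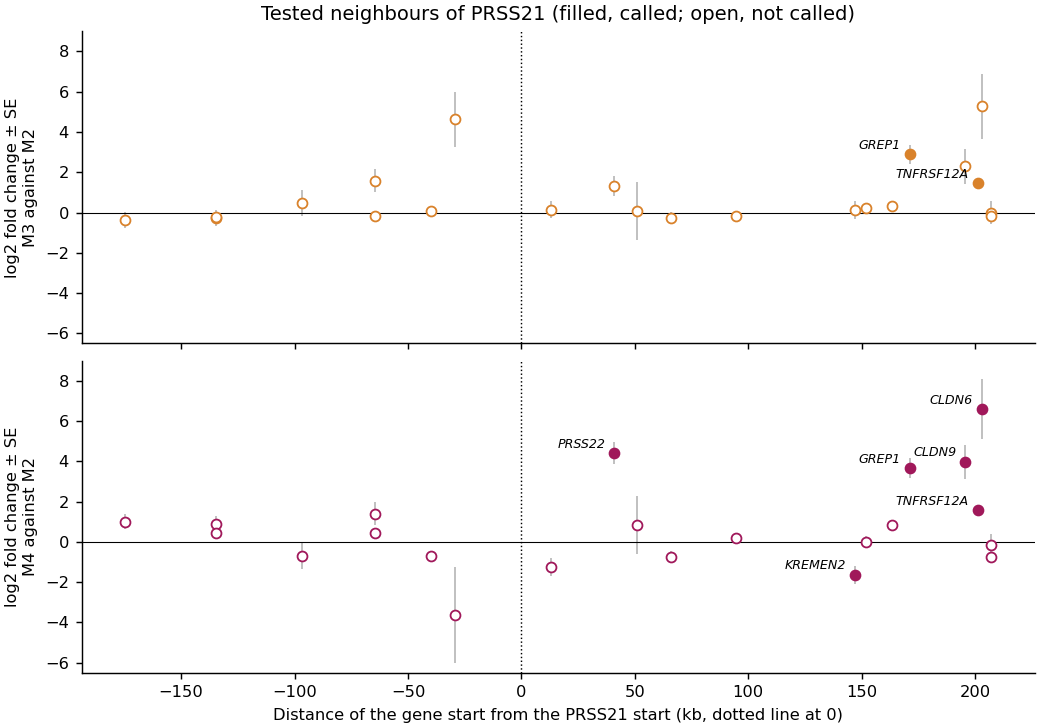
Log2 fold changes with their SE (edgeR) of the 22 tested neighbours of PRSS21 in M3 against M2 (top) and M4 against M2 (bottom), by the distance of their start from that of PRSS21 in kb, with called genes filled. In the pairs drawn, the called genes lie from 41.0 kb on, and those nearest to PRSS21 on both sides are not called. The values of CLDN6 and PRSS33 depend on lines at 0 counts.

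Genes that keep germline genes silent were counted too. Of 19 listed, 18 (the E2F6, MGA and polycomb group, histone methyltransferases and DNA methyltransferases) were matched and tested, and 16 of them were called in no pair. In M3 against M2, 1 was called higher and 1 lower, beside 2.95% and 1.2% of all tested genes. In M4 against M2, 0 were higher and 1 lower, beside 6.98% and 6.94%. DNMT3B, a de novo DNA methyltransferase, had counts of 248 and 289 (M1), 568 and 394 (M2), 90 and 189 (M3) and 86 and 72 (M4). DNMT3B fell in M3 against M2 (log2 fold change -1.76, SE 0.37, adjusted p = 0.0383, edgeR) and in M4 against M2 (log2 fold change -2.73, SE 0.39, adjusted p = 0.0035, edgeR). Against M1, DNMT3B was called lower in M4 (log2 fold change -1.96, SE 0.38, adjusted p = 0.00748, edgeR). It was not called in M3 against M1 (log2 fold change -0.98, SE 0.37, adjusted p = 0.096, edgeR). The call for M3 was lost without M2 replicate 1, M2 replicate 2 or M3 replicate 1 (adjusted p up to 0.245, edgeR), and that for M4 against M2 was kept. RNF2, a ubiquitin ligase of polycomb complexes, was called higher in M3 against M2 (log2 fold change 1.07, SE 0.17, adjusted p = 0.0137, edgeR), and not without either M2 library (adjusted p up to 0.208, edgeR).

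The genes whose pattern was most like that of PRSS21 over the 8 libraries were found by Pearson's r of log2(CPM + 0.5) among 14326 genes with at least 100 counts in a library. They were ZNF32 (r = 0.998), ANKRD6 (0.997), RAB1A (0.996), PDE1C (0.993) and TIMP2 (0.991). The libraries of a line share their culture and the 2 carcinoma lines share their medium, so such an r mostly records a split of 4 libraries against 4. ZNF32, a zinc finger gene on chromosome 10, had counts of 0 and 0 (M1), 4 and 0 (M2), 820 and 983 (M3) and 873 and 620 (M4). PDE1C, a phosphodiesterase gene on chromosome 7, had 12 and 15 counts in the M1 replicates, 20 and 8 in those of M2, 3715 and 2337 in those of M3, and 5224 and 2105 in those of M4. RAB1A, by contrast, had 9253 to 18479 counts in all libraries and only a small step, from between 113 and 120 CPM in M1 and M2 to between 163 and 170 CPM in M3 and M4. With 0.01 added in place of 0.5, RAB1A, PDE1C and ANKRD6 were again among the first 5, now with ISL2 and ERLEC1. Among the members, r with PRSS21 was 0.982 for SYCP2, 0.877 for SMC1B, -0.50 for STAG3 and -0.01 for REC8.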

How the data were processed

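Poly A+ RNA of 4 lines (2 biological replicates each) was sequenced as paired ends; the authors trimmed reads with Trimmomatic, aligned them to hg19 with STAR and counted them on GENCODE v19 with RSEM. The deposited values are expected counts per gene, not normalized; 12.8% are not whole. Use of strand is not given in the sources used here. Counts were rounded. Lines came from the labels. edgeR 4.0.16 (R 4.3.3; quasi-likelihood, robust, TMM, filterByExpr, all 8 libraries) was fitted to all genes, with Benjamini-Hochberg adjustment over 18431; the SE follows from F. The members and gene lists were chosen with earlier results of these data known. Named were the members, called list genes with at least 10 counts in both replicates of the higher line (at most 10 a list), mitotic counterparts, protease relatives, called repressors, neighbours of PRSS21 called in M4 against M2 or M3, and the 5 genes most like PRSS21. Annotation was GENCODE 44 mapped to GRCh37. In simulated data for M4 against M1 (18431 genes), 73 of 100 genes changed by a log2 fold change of 1.5 and 95 of 100 changed by 3 were called, with 10 unchanged ones. The changed genes were drawn only from genes with a higher mean level than SMC1B, STAG3, REC8 and SYCP3, so these rates do not cover such genes. Alternatives were other size factors, library totals, filters, DESeq2 1.42.0, a replicate block, fits of 2 lines, no fold minimum, exchanged libraries and leaving out each library.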

Additional observations from a re-analysis of the deposited data

Results flagged for a closer look

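Among the genes named in the report, 15 were called between the 2 carcinoma-derived lines grown in the same medium, so that their change from M2 differed between M3 and M4. Over all tested genes, 3.99% were called higher and 6.3% lower in M4 against M3. Some of the 15 were named because of such calls, so their number is not a result. In M4 against M3 (edgeR), the log2 fold change was -6.07 for DMC1, -2.23 for MCMDC2 and -3.94 for ACTL8, all lower in M4 in both replicates. Among the proteases it was 2.02 for PRSS8 and 3.07 for PRSS22, both higher in M4, and -8.27 for PRSS33, which had 33 and 41 counts in M3 and 0 in both M4 libraries, at least 13.7-fold lower. It was 2.39 for TMPRSS4 and 3.17 for TMPRSS13, higher in M4, and -4.09 for TMPRSS3 and -3.87 for SERPINA5. Of the basal keratins, KRT5 had -1.02 and KRT14 -5.24. HS3ST2, at 0 in M1 and M2, had 3.03. Near PRSS21 it was 1.38 for PDPK2P, a pseudogene, and -1.77 for KREMEN2. Each M3 or M4 library was left out in turn for DMC1, MCMDC2, ACTL8, PRSS8, PRSS22, PRSS33, PDPK2P and KREMEN2, and of these 8 calls only that of ACTL8 was kept.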

How the results depend on the processing

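With 2 replicates a line, p-values measure the spread between replicate cultures, estimated jointly over all 8 libraries. Each M3 and M4 difference from M1 or M2 is tied to the medium. The filter on low counts removed most genes under about 10 counts in every library. A call could still rest on few counts, as that of DMC1 in M4 (1 and 0 counts) against M1 (7 and 6). Of the alternatives for counts of calls, 111 stayed within 1.5 times and 19 did not. Counts of members in this section, in M3 against M2 too, include PRSS21, and those in M4 against M1 rest on the comparison that chose it, so they support nothing. For members, no filter on low counts gave 1 call in M2 against M1, 6 in M4 against M1 and 1 in M4 against M3, DESeq2 gave 1 in M2 against M1, no fold minimum gave 1 in M4 against M3, and exchanging M1 replicate 2 and M2 replicate 1 gave 2 in M3 against M1. For the wider meiosis list the exchange gave 0 calls in M2, M3 and M4 against M1 and 1 in M4 against M3, at least 1 CPM in 2 libraries gave 0 in M4 against M3, and a fit of the 2 lines alone gave 1. Leaving out 1 library, members called ranged from 0 to 0 (M2 against M1), 3 to 3 (M3 against M1), 2 to 4 (M4 against M1), 2 to 2 (M3 against M2), 2 to 2 (M4 against M2) and 0 to 1 (M4 against M3), and listed meiosis genes from 0 to 4, 3 to 4 and 4 to 6 against M1, and 0 to 1 in M4 against M3. In such fits a lone replicate is assumed to vary like the other lines. Log2 fold changes that turned sign under the exchange were 0.36 for STAG3 (M2 against M1) and -1.14 (M4 against M2), and -0.10 for SGO2, -0.15 for MND1, -0.032 for TRIP13, -0.17 for PSMC3IP and -0.10 for PBK in M2 against M1, and -0.012 for MND1 in M4 against M1; the cause was not tested. Without 1 library, uncalled log2 fold changes that turned sign ranged from -0.00763 to 0.42 for SYCP2 (M4 against M3), from -1.87 to 0.20 (M2 against M1) and -1.22 to 3.57 (M4 against M3) for SYCP3, from -0.51 to 0.13 (M3 against M2), -0.80 to 1.22 (M4 against M2) and -0.59 to 1.42 (M4 against M3) for STAG3, and from -0.63 to 0.21 (M3 against M1), -0.0559 to 2.13 (M4 against M1) and -0.94 to 1.24 (M4 against M2) for REC8. Same-numbered replicates did not pair: the correlation of their deviations lay between -0.02 and 0.12 over the 6 pairs of lines. With a replicate block, the 6 counts of members called stayed at 0, 4, 3, 3, 2 and 0 (M2, M3 and M4 against M1, M3 and M4 against M2, M4 against M3).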

Other observations

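TDRD5, a Tudor-domain gene of the piRNA pathway in male germ cells, had counts that set M3 apart, and it was singled out after its values were seen. It had counts of 60 and 0 (M1), 1 and 0 (M2), 337 and 452 (M3) and 26 and 3 (M4). Its log2 fold change in M3 against M2 was 9.37 (SE 2.15, adjusted p = 0.0526, edgeR) and in M4 against M3 -5.07 (SE 1.54, adjusted p = 0.0639, edgeR), neither past the threshold. As for RNF212, M1 replicate 1 held counts where M1 replicate 2 and both M2 libraries held 1 or 0.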
